A study of Homo sapiens with 4 samples.

Results

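Metallothioneins and the machinery of the cellular zinc response were examined in FLO-1LM and FLO-1 parental cells. The 8 genes were *MT2A*, *MT1E*, *MT1X*, *MT1M*, *MT1F* and *MT1G* of the metallothionein family, the zinc sensor *MTF1*, and the zinc exporter *SLC30A1*. They were taken by symbol from the 63677 genes in the count tables, and 7 of them were among the 17143 genes tested. FLO-1 is a long-established line of human esophageal adenocarcinoma cells. FLO-1LM is a single subline of it, grown out from a liver metastasis. Before that, FLO-1 liver metastases had been passaged serially under the skin of NSG mice, which lack functional lymphocytes. Both lines were grown in serum-containing DMEM, with no metal or drug treatment given in the labels, and were harvested at 80% confluency, 24 hours after the medium was renewed. RNAseq was performed on 2 libraries per line, and the labels and methods leave unstated whether these were separate cultures, so the p-values measure only the spread between these libraries, which may be technical.

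Metallothioneins are small cysteine-rich proteins that hold zinc, copper and cadmium through their thiol groups. When free zinc rises, *MTF1* binds it through its zinc fingers and turns on the metallothionein genes and *SLC30A1*, which carries zinc out across the plasma membrane. The level of these transcripts is therefore widely used as a readout of the zinc available to a cell, although glucocorticoids and oxidants also raise metallothionein transcripts.

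None of the 7 tested genes differed between FLO-1LM and parental cells at an adjusted p below 0.05 (edgeR quasi-likelihood test, Benjamini-Hochberg over all genes tested), where 2.23% of all tested genes did. Transcripts of *MT2A* and *MT1E* were abundant in both lines. *MT2A* averaged 316 ± 19.2 CPM (read counts after scaling for library depth) in FLO-1LM and 324 ± 5.53 in parental cells (mean ± SD, n = 2 libraries each, as throughout), and *MT1E* averaged 177 ± 21.5 and 187 ± 3.07. The zinc exporter *SLC30A1* had the smallest p of the members. It averaged 76.9 ± 8.88 CPM in FLO-1LM against 91.6 ± 9.48 in parental cells, which did not pass the adjustment (adjusted p = 0.262). *MT1G* had no count in any library.

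The promoters below are shown because the metal response of these genes is read from them. *MTF1* protein recognizes the metal response element, whose core was searched as TGCACNC and TGCGCNC on both strands in the 250 bases before each start site. Of the 8 genes, 4 had a promoter in the RefSeq table used (GRCh38.p14): *MT2A*, *MT1X*, *SLC30A1* and *MTF1*. *MT1H*, a neighbor of *MT1G* that also had no count in any library, is printed for comparison. Sequences run 5′ to 3′ toward the gene, and capitals mark the cores in either orientation.
MT2A, chr16:56608334-56608583 (+ strand): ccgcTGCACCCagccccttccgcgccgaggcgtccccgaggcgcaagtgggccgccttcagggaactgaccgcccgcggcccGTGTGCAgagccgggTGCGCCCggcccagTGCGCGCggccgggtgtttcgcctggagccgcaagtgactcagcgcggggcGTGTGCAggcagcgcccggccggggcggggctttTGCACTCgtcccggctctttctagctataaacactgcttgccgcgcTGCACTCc
MT1X, chr16:56682220-56682469 (+ strand): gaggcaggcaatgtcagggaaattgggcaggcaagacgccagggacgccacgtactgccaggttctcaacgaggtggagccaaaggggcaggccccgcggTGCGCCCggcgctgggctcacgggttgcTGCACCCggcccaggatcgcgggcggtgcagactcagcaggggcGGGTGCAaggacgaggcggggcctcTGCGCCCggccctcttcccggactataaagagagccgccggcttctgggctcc
SLC30A1, chr1:211579162-211579411 (- strand): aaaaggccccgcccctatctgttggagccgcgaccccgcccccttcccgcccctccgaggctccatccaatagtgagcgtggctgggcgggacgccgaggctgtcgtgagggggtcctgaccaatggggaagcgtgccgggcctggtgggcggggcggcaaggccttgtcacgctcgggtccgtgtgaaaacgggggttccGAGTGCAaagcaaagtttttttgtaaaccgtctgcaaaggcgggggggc
MT1H, chr16:56669564-56669813 (+ strand): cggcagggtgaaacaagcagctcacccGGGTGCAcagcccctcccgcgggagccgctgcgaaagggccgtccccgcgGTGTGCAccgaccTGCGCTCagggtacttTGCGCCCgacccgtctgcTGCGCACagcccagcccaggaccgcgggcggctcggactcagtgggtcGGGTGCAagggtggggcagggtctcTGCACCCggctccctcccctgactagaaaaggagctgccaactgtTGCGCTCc

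The window of *MT2A* held 7 cores, 5 forward and 2 reverse, of which the nearest lay 8 to 2 bases before the start site. *MT1X* held 4 cores, 3 of them forward. *SLC30A1* held 1, in reverse, between 49 and 43 bases before the start site, and the *MTF1* window held no match to these letters. No cores overlapped each other within a window. Among 35091 promoter windows of the same length, 24.8% held at least 1 core, 0.368% held at least 4, and 0.0313% (11 windows) held at least 7. *MT1H*, with no count here, held 8, more than the window of *MT2A*, the metallothionein with the highest level here. It was the only gene outside the members whose window is shown, and whether core number goes with level was not tested. A match of letters is a description of the window and not a measured binding site.

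Counts on genes totaled 22646123 and 25920336 in FLO-1LM and 21750508 and 19060310 in parental cells, and mitochondrial genes took 9.57% to 9.96% of counts in FLO-1LM and 7.93% to 8.31% in parental cells. A count was found for 21152 and 21304 genes in FLO-1LM and for 23104 and 22908 genes in the parental libraries, which had the lower totals. Neither measure overlapped between the lines. With the mitochondrial genes left out, the log2 fold change of *SLC30A1* was −0.254, against −0.253 with them. That of *MT2A* was −0.039, against −0.038, and 383 genes were called between the lines, against 382. Any other part of the mitochondrial share, and the part of the number of genes with a count, was not tested. A gene with no count is compatible with up to 3 counts, or 0.117 to 0.156 CPM depending on the library, and this limit covers counting error only. Carcinoma cells were represented by *KRT8*, *KRT18* and *VIM* in both lines, while *EPCAM* had 3 to 12 counts per library and *CDH2* none. Of 7 tested genes of the epithelial and mesenchymal marker list, 5 were called lower in FLO-1LM at an adjusted p below 0.05. These were *CDH1*, *KRT8*, *KRT18*, *KRT19* and *CLDN4*, beside 1.83% of all tested genes called lower. *VIM* (log2 fold change 0.08) and *ZEB1* (0.14) were not called. The summed list ran from 2143 to 2335 CPM in FLO-1LM and from 2495 to 2537 in parental cells. Most of that sum was *VIM*, with 1762 and 1577 CPM in FLO-1LM and 1565 and 1598 in parental cells. FLO-1LM came from the liver of a mouse, and the counts are on human genes, so the markers of other cell types given next do not measure mouse cells. Among hepatocyte markers, *ALB*, *TTR* and *CYP3A4* had no count in any library, and the 6 hepatocyte markers summed to 15.6 to 16.4 CPM in FLO-1LM and 18.4 to 19.4 in parental cells, most of it *SERPINA1*. The fibroblast list summed to 11.1 to 13.1 CPM in FLO-1LM and 10.01 to 12.8 in parental cells, with *COL3A1* and *DCN* at 0. The leukocyte list summed to 0.971 to 1.17 and 0.544 to 0.678 CPM with *PTPRC* at 0, and the endothelial list to 0.0388 to 0.135 and 0.0454 to 0.313 CPM with *KDR* at 0.

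*MT2A* (ENSG00000125148; GRCh37 chr16:56642496-56643409, + strand) encodes the most widely expressed human metallothionein. It had 329 and 302 CPM in the FLO-1LM libraries and 320 and 328 CPM in the parental libraries. Both parental values lay within the range of the FLO-1LM values. The log2 fold change, FLO-1LM against parental, was −0.04 ± 0.07 (SE), with a 95% interval from −0.19 to 0.12 (unadjusted p = 0.61, adjusted p = 0.899). The lower bound of this interval corresponds to 0.876 times the parental level. The SE was the smallest among the members, and the gene drew 6289 to 7778 counts per library.

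*MT1E* (ENSG00000169715; chr16:56659387-56661024, + strand), the next most abundant, had 162 and 192 CPM in FLO-1LM and 185 and 189 CPM in parental cells. The groups overlapped, with both parental values between the FLO-1LM values. Its log2 fold change was −0.08 ± 0.08 (95% interval −0.26 to 0.09, adjusted p = 0.787). The FLO-1LM libraries differed by 0.25 from each other on the log2 scale and the parental libraries by 0.03, so that the spread within FLO-1LM was larger than the difference between the lines.

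*MT1X* (ENSG00000187193; chr16:56716382-56718108, + strand) lies at the far end of the cluster. It had 48.6 and 51.9 CPM in FLO-1LM and 52.7 and 45.9 CPM in parental cells, again with overlapping groups. The log2 fold change was 0.03 ± 0.10 (95% interval −0.18 to 0.24, adjusted p = 0.955). Its exons share 321 bases with a noncoding transcript on the same strand, ENSG00000259827, which had no count in any library. How the authors' counting treated reads in that stretch is not stated.

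*MT1M* and *MT1F* encode further metal-binding isoforms of the MT1 group and were expressed at lower levels. *MT1M* (ENSG00000205364; chr16:56666571-56667893, + strand) had 8.71 and 5.87 CPM in FLO-1LM and 8.71 and 9.70 CPM in parental cells, from 151 to 194 counts. Both FLO-1LM values were below both parental values, although the higher FLO-1LM value (8.708) and the lower parental value (8.710) were nearly equal. The log2 fold change was −0.34 ± 0.22, the furthest from 0 among the members and the one with the widest interval (−0.80 to 0.12, unadjusted p = 0.134, adjusted p = 0.587). *MT1F* (ENSG00000198417; chr16:56691643-56694610, + strand) had 17.7 and 14.8 CPM in FLO-1LM and 14.8 and 17.0 CPM in parental cells. The groups overlapped, and the log2 fold change was 0.04 ± 0.16 (95% interval −0.29 to 0.37, adjusted p = 0.963).

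*MT1G* (ENSG00000125144; chr16:56700642-56701977, − strand) differed from the other 5 metallothioneins chosen here. It had 0 counts in each of the 4 libraries, a level of at most 0.117 to 0.156 CPM at this depth, whereas those 5 genes had 151 counts or more in every library. Of the cluster genes listed here it is the only one on the − strand.

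*MTF1* (ENSG00000188786; chr1:38275246-38325264, − strand), the transcription factor that senses zinc, had 39.0 and 38.0 CPM in FLO-1LM and 40.1 and 41.3 CPM in parental cells. The FLO-1LM values lay below the parental values by a narrow margin. The log2 fold change was −0.08 ± 0.10 (95% interval −0.29 to 0.13, unadjusted p = 0.433, adjusted p = 0.833).

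*SLC30A1* (ENSG00000170385; chr1:211744910-211752503, − strand), the plasma membrane exporter also called ZnT1, had 83.2 and 70.7 CPM in FLO-1LM and 98.3 and 84.9 CPM in parental cells. Both FLO-1LM libraries were below both parental libraries, but the closest pair (83.2 and 84.9) lay nearer to each other than the libraries within either line. The log2 fold change was −0.25 ± 0.10, with a 95% interval from −0.46 to −0.05, or 0.839 times the parental level (unadjusted p = 0.0182, adjusted p = 0.262). An unadjusted p below 0.05 was reached by 12.4% of all tested genes. Without FLO-1LM replicate 1 the log2 fold change was −0.38 and the adjusted p was 0.00322. Over the 11 alternatives run, the adjusted p ranged from 0.00322 to 0.999, and the other 10 did not pass the threshold.

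**Figure D1:**
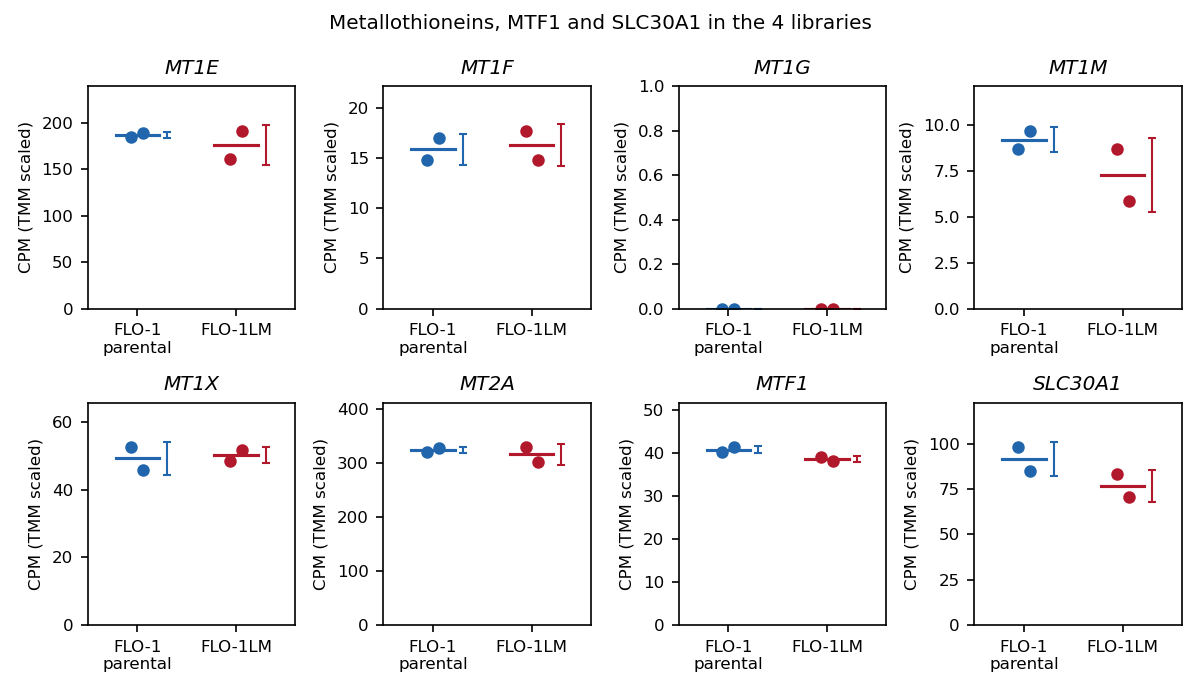
CPM after TMM scaling (y axis, linear from 0) of the 8 genes in each library. Points are libraries, horizontal lines are the means of the 2 libraries, and the bars beside them are ± 1 SD. Values of the lines intermingle for *MT1E*, *MT1F*, *MT1X* and *MT2A*, FLO-1LM lies below parental cells for *MT1M*, *MTF1* and *SLC30A1*, and *MT1G* is at 0 in all libraries.

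Of the 7 tested members, 2 (*MT1X* and *MT1F*) had a positive and 5 a negative log2 fold change, with *MT1X* turning to −0.0045 when only library totals were used for scaling, and the median was −0.08, beside 0.0016 over all genes tested. In 3 members (*MT1M*, *MTF1* and *SLC30A1*) both FLO-1LM libraries lay below both parental libraries, an arrangement that 21.7% of all tested genes showed. The opposite arrangement, seen in 20.9% of tested genes, occurred in no tested member. The 95% intervals of the 7 members reached from −0.80 to 0.37 on the log2 scale. The direction of 4 metallothioneins depended on single libraries. Leaving out each library in turn moved the log2 fold change of *MT2A* between −0.10 and 0.02, that of *MT1E* between −0.21 and 0.04, that of *MT1X* between −0.07 and 0.13, and that of *MT1F* between −0.09 and 0.16. The sign changed for *MT2A* without FLO-1LM replicate 2, for *MT1E* without FLO-1LM replicate 1, for *MT1X* without FLO-1LM replicate 2 or parental replicate 2, and for *MT1F* without FLO-1LM replicate 1 or parental replicate 1. With 2 libraries per line, permuting the libraries exactly for 1 gene gives no p below 0.333, so the tests rest on the variation that the model shares across genes.

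**Figure D2:**
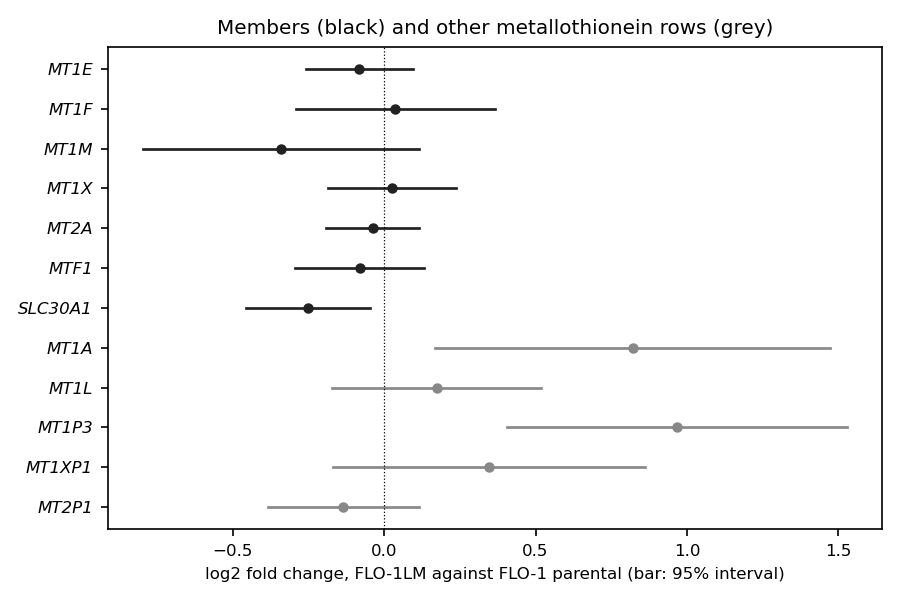
Log2 fold change of FLO-1LM against parental cells (x axis) for the 7 tested members (black) and the other tested metallothionein rows (grey), with bars for the 95% interval of the edgeR fit. The intervals of 6 members include 0 and that of *SLC30A1* ends at −0.05. The 3 rows furthest to the right of 0 are *MT1A* and the pseudogenes *MT1P3* and *MT1XP1*.

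To order the genes by level, CPM was divided by the length of each gene's exons in kilobases (CPM per kb). *MT2A* had 350.0 CPM per kb averaged over the 4 libraries, a level above 99.6% of tested genes. *MT1E* followed with 173, then *MT1X* with 28.8, *MT1M* with 16.1, *SLC30A1* with 14.3, *MT1F* with 8.68 and *MTF1* with 4.96 CPM per kb, and *MT1G* was at 0. The ranges over the 4 libraries were separate for neighbors in this order, except for *MT1M* (11.5 to 18.98 CPM per kb) and *SLC30A1* (11.99 to 16.7 CPM per kb). The order was the same when the longest transcript was used as the length. The zinc-binding products *MT2A* and *MT1E* stood far above their activator *MTF1*, which ranked near the middle of all tested genes (percentile 51.9), in both lines.

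Near-identical copies make the split of reads between metallothionein genes uncertain, and how the authors counted reads that match several places is not stated. Some 50-base stretches of the annotated transcripts occurred, with at most 1 mismatch, in another listed metallothionein gene or pseudogene of any chromosome. The share was 11.3% for *MT2A*, 16.8% for *MT1E*, 24.9% for *MT1M*, 23.4% for *MT1G*, 5.11% for *MT1X* and 1.96% for *MT1F*. The pseudogene *MT2P1* on chromosome 4 held 10.5% of the *MT2A* stretches, and *MT1XP1* on chromosome 1 held 3.13% of those of *MT1X*. Counts were therefore also summed over the 15 metallothionein genes and pseudogenes of the chromosome 16 cluster, which leaves out the copies on other chromosomes. The sum was 588 and 586 CPM in FLO-1LM and 598 and 609 CPM in parental cells. Both FLO-1LM sums were below both parental sums, and the log2 ratio of the means was −0.04 (587 ± 1.32 against 603 ± 8.27 CPM, no test). *MT2A* made up 51.5% to 56.0% of the summed counts, *MT1E* 27.5% to 32.8%, *MT1X* 7.54% to 8.86%, *MT1F* 2.47% to 3.01% and *MT1M* 1.00% to 1.59%. In FLO-1LM replicate 1 the share of *MT2A* was the highest and that of *MT1E* the lowest of the 4 libraries, and in FLO-1LM replicate 2 the reverse held.

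Of the metallothionein genes that are not members, *MT1A* was detected at a low level. It had 104 and 92 counts in FLO-1LM and 53 and 43 in parental cells, or 4.67 and 3.57 against 2.40 and 2.24 CPM. *MT1A* shared 20.7% of its 50-base stretches with another listed metallothionein gene or pseudogene. Both FLO-1LM libraries were above both parental libraries, and the log2 fold change was 0.82 ± 0.31 (95% interval 0.17 to 1.47, unadjusted p = 0.0165), which did not pass the adjustment (adjusted p = 0.250). Without FLO-1LM replicate 2 the value was 1.00 with an adjusted p of 0.0419, and over the 11 alternatives the adjusted p reached 0.910. *MT1B*, *MT1H*, *MT1HL1* and *MT4* had no count in any library. *MT3*, known as the brain metallothionein, had 1 and 2 counts in FLO-1LM and 11 and 2 in parental cells, too few to test.

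Pseudogenes of the family also drew reads. *MT1L*, within the cluster, had 389 and 408 counts in FLO-1LM and 281 and 323 in parental cells (log2 fold change 0.17 ± 0.16, adjusted p = 0.761). It shared 64.2% of its 50-base stretches with another listed metallothionein gene or pseudogene. *MT1JP*, *MT1DP* and *MT1CP* had at most 8 counts in a library. Processed copies on other chromosomes were counted as well. *MT2P1* on chromosome 4 had 745 and 719 counts in FLO-1LM and 764 and 625 in parental cells, 9.24% to 10.8% of the *MT2A* counts of the same library, and 79.1% of its 50-base stretches occurred in another metallothionein gene. *MT1XP1* on chromosome 1 had 138 and 242 counts in FLO-1LM and 159 and 97 in parental cells, 11.01% to 18.1% of the *MT1X* counts. *MT1P1* on chromosome 9 had 5 counts in a library or fewer. *MT1P3* on chromosome 20 had 245 and 206 counts in FLO-1LM and 74 and 123 in parental cells, with a log2 fold change of 0.97 ± 0.27 (unadjusted p = 0.00198, adjusted p = 0.0733) that passed the threshold in 4 of the 11 alternatives, where the adjusted p ranged from 1.42e-05 to 0.932. Of its 50-base stretches, 86.7% occurred in another listed metallothionein gene or pseudogene, among them 57.0% in *MT1JP*, 48.4% in *MT1L*, 36.7% in *MT1E*, 35.9% in *MT1A* and 32.8% in *MT1M*. How far its counts hold reads from these genes was not tested. With the copies of other chromosomes added, the summed level was 639 and 632 CPM in FLO-1LM and 643 and 654 CPM in parental cells.

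**Figure D3:**
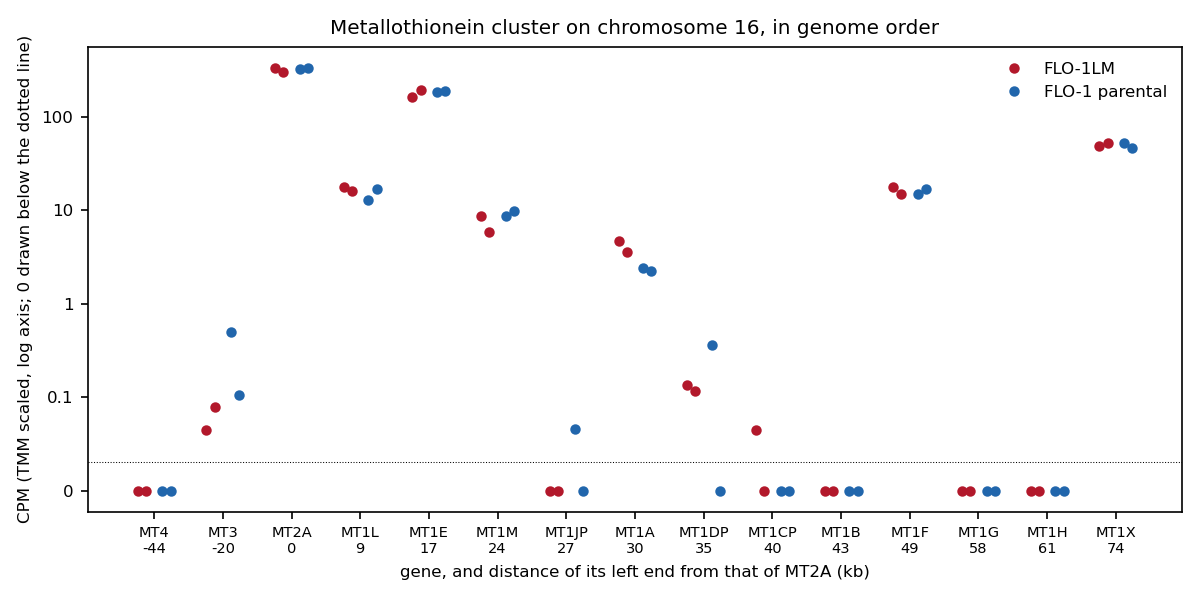
CPM (y axis, log scale, with 0 drawn below the dotted line) of the 15 metallothionein genes and pseudogenes of chromosome 16 in genome order, with the distance of each left end from that of *MT2A* in kilobases under the name. Each point is a library. *MT2A*, *MT1E* and *MT1X* are the highest in both lines, and *MT4*, *MT1B*, *MT1G* and *MT1H* are at 0 in every library.

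The genes that flank the cluster on chromosome 16 were each tested in the same fit. Of 9 neighbors 7 were tested and none passed the threshold, with 2 positive and 5 negative log2 fold changes and a median of −0.03. *GNAO1*, a G protein subunit, was furthest from 0 with −0.40 ± 0.19 (8.42 against 11.1 CPM, adjusted p = 0.412).

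Zinc transport genes surround *SLC30A1* in function. Members of the SLC30 family lower zinc in the cytosol, by export or by loading it into organelles, and members of the SLC39 family bring it in. Of 9 further SLC30 genes 7 were tested, and none was called, with 5 positive and 2 negative log2 fold changes and a median of 0.10. *SLC30A6*, a transporter of the secretory pathway, had 59.6 and 67.7 CPM in FLO-1LM and 59.2 and 55.2 CPM in parental cells, with a log2 fold change of 0.15 ± 0.10 (adjusted p = 0.571). *SLC30A9* had 0.15 ± 0.11 (43.2 against 39.1 CPM, adjusted p = 0.657). *SLC30A1* was the SLC30 gene furthest below 0 among those tested, although the difference between it and the others was not tested.

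Of 14 SLC39 genes 10 were tested and none was called. Positive log2 fold changes were found for 9 of these 10, beside 8639 of all 17143 tested genes. The median was 0.08, and 1 value was negative. The negative value belonged to *SLC39A14*, an importer of zinc that also carries iron and manganese, and the SLC39 gene with the highest level per length here. It had 797 and 839 CPM in FLO-1LM and 933 and 899 CPM in parental cells, with both FLO-1LM libraries below both parental libraries. The log2 fold change was −0.16 ± 0.07 (unadjusted p = 0.0264), which did not pass the adjustment (adjusted p = 0.313). *SLC39A10*, an importer of the plasma membrane, had 0.11 ± 0.10 (40.9 against 37.9 CPM, adjusted p = 0.751). *SLC30A8*, the zinc transporter of insulin granules, *SLC39A2* and *SLC39A12* had no count in any library.

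**Figure D4:**
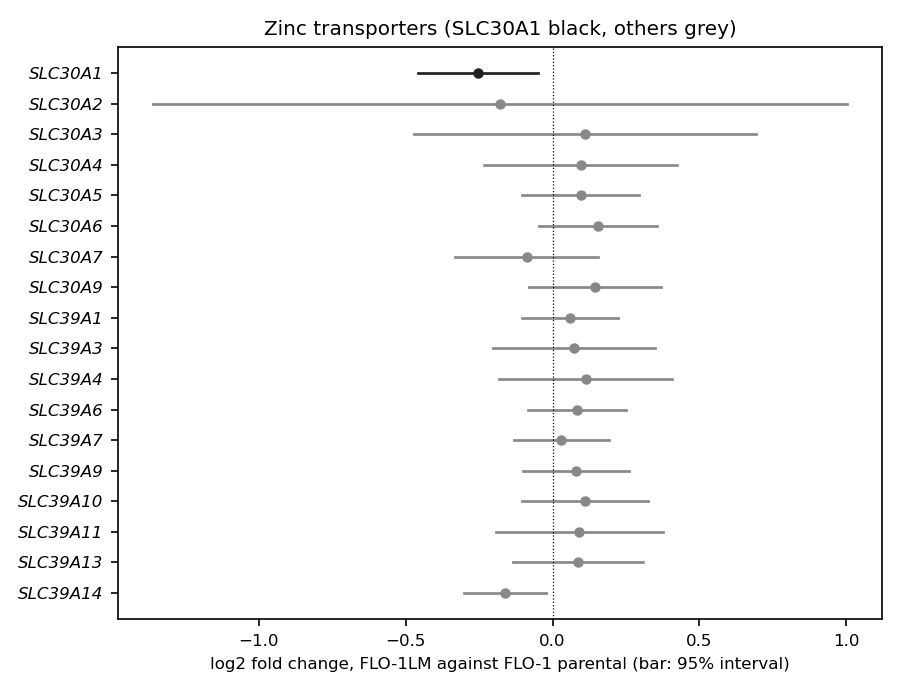
Log2 fold change of FLO-1LM against parental cells (x axis) for *SLC30A1* (black) and the 17 other zinc transporter genes that were tested (grey), with bars for the 95% interval. The intervals of *SLC30A1* and *SLC39A14* lie below 0, before adjustment for the number of genes tested, and the others include 0.

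Other metal and stress pathways that share inducers or ligands with metallothioneins were examined by lists. No copper gene of 9 tested was called (5 positive and 4 negative log2 fold changes, median 0.05). The superoxide dismutase *SOD1*, which binds copper and zinc, had 0.12 ± 0.07 (413 against 380 CPM, adjusted p = 0.530), and the copper pump *ATP7A* had 0.25 ± 0.16 (17.3 against 14.6 CPM, adjusted p = 0.591). Of 12 tested genes of the metal and oxidant stress list none was called (10 positive and 2 negative, median 0.06). Positive values numbered 8639 among all 17143 tested genes. The chaperone *HSPH1* had 0.17 ± 0.07 (adjusted p = 0.319), and *HSF1*, the regulator of the heat shock response, had 0.14 ± 0.08 (adjusted p = 0.541). *HMOX1*, the heme oxygenase that cadmium and other metals strongly induce, had 199 and 186 CPM in FLO-1LM and 176 and 180 CPM in parental cells (0.11 ± 0.07, adjusted p = 0.628).

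Among the metal and stress lists, only the iron list held called genes, and these went in opposite directions. Of 10 tested iron genes 1 was called higher and 1 lower, beside 0.402% and 1.83% of all tested genes. *FTL*, the ferritin light chain, rose in FLO-1LM, with 646 and 647 CPM against 437 and 495 CPM in parental cells (log2 fold change 0.47 ± 0.07, adjusted p = 0.00107). *FTH1*, the heavy chain that oxidizes iron for storage, fell, with 537 and 528 CPM against 640 and 652 CPM (log2 fold change −0.28 ± 0.07, adjusted p = 0.0343). The libraries of the lines did not overlap for either chain, an arrangement that 42.6% of all tested genes showed in either direction. Without FLO-1 parental replicate 1, *FTL* had 0.38 with an adjusted p of 0.0975 (range over the alternatives 2.84e-09 to 0.0975) and *FTH1* had −0.29 with 0.353. Without FLO-1 parental replicate 2, *FTH1* had −0.27 with an adjusted p of 0.425 (range over the alternatives 0.00361 to 0.425).

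The glucocorticoid list was included because glucocorticoids induce metallothionein genes. None of its 9 tested genes was called, all 9 log2 fold changes were negative, and the median was −0.14. Of all 17143 tested genes, 8504 had a negative log2 fold change. *CEBPD*, a transcription factor induced by glucocorticoids and cytokines, had 33.9 and 31.0 CPM in FLO-1LM and 41.1 and 43.97 CPM in parental cells (log2 fold change −0.39 ± 0.11, adjusted p = 0.0687). *NR3C1*, the glucocorticoid receptor itself, had 117 and 107 CPM against 134 and 130 CPM (−0.24 ± 0.08, adjusted p = 0.181). Without FLO-1LM replicate 1 both passed the threshold, *CEBPD* with −0.46 and an adjusted p of 0.00387 and *NR3C1* with −0.30 and an adjusted p of 0.0199. With all 4 libraries, *CEBPD* also passed with library totals only (−0.42, adjusted p = 0.0395) and with no low-count filter (−0.39, adjusted p = 0.0373). Over the alternatives the adjusted p of *CEBPD* reached 0.687 and that of *NR3C1* 0.945. The metallothioneins themselves, in the same fit, had a median of −0.04 over the 5 tested.

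**Figure D5:**
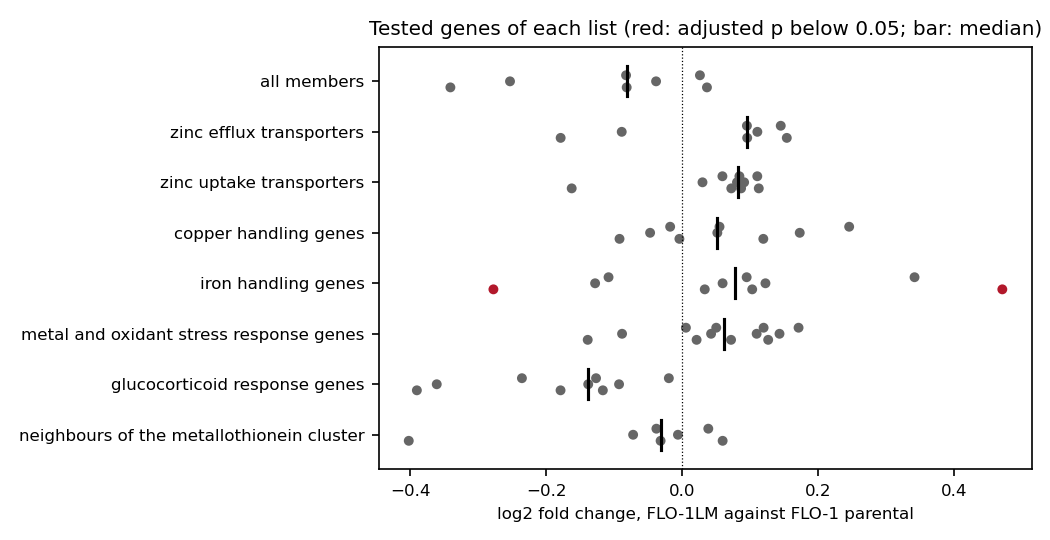
Log2 fold change of FLO-1LM against parental cells (x axis) of each tested gene in the lists (rows). Each dot is a gene, red dots passed an adjusted p of 0.05, and vertical bars are medians. The members lie between −0.34 and 0.04, and the only red dots are *FTH1* and *FTL* in the iron list.

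The genes most like *MT2A* and *SLC30A1* over the 4 libraries were sought by the Euclidean distance between log2 CPM profiles centered on their means. Nearest to *MT2A* were ENSG00000159239 (distance 0.00888), the adaptor *GRB2* (0.0105) and the chromatin reader *BRD3* (0.0133). Nearest to *SLC30A1* were the sugar transporter *SLC2A12* (0.0106), *STARD8* (0.0158) and *NAV1* (0.0410). Over only 4 libraries such profiles are a description of these libraries.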

How the data were processed

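Total RNA from 2 FLO-1LM and 2 FLO-1 parental libraries was sequenced by the authors from directional libraries, demultiplexed with bcl2fastq 2.17, trimmed with Trimmomatic 0.30 and mapped to GRCh37 (tool versions per the submitters' processing notes). The deposited files hold the authors' raw read counts per Ensembl gene. The aligner, the counting program, its strand setting and its handling of multi-mapping reads are not given in the sources used here. Groups were taken from the labels. The member genes and all gene lists were chosen with earlier results of these data known.

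Counts were analyzed in R 4.3.3 with edgeR 4.0.16 (filterByExpr with a minimum count of 10 and a minimum total of 15, TMM scaling, glmQLFit and glmQLFTest, two-sided), with Benjamini-Hochberg adjustment over 17143 genes and a threshold of 0.05. SEs were derived from the F statistic as |log2 fold change|/√F. CPM are TMM scaled. Total counts of 19060310 to 25920336 per library gave SEs of 0.07 to 0.22 for the members. Symbols, positions and exon lengths came from a later GENCODE annotation on GRCh37. Symbols *MT1IP* and *PECAM1* matched no gene in the files. Promoters came from RefSeq (GRCh38.p14), and no coordinates were converted between builds.

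Genes named were the members, all listed metallothionein genes and pseudogenes, up to 4 genes of each other list that passed the threshold or, where none did, the 1 or 2 with the smallest p, and the 3 genes nearest in profile to *MT2A* and to *SLC30A1*. *HMOX1*, the transporters listed at 0 and the cell type markers were named outside this rule after their values were seen. Of the genes that this rule selects, 1 is not reported here. Alternatives were RLE factors, library totals only, DESeq2 1.42.0, limma voom (limma 3.58.1), no low-count filter, at least 10 counts in every library, mitochondrial genes left out, and each library left out in turn. The fit was tested on simulated data with 200 changed genes.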

Additional observations from a re-analysis of the deposited data

How the results depend on the processing

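Of 77 refitted log2 fold changes of the 7 tested members, 69 kept their direction and their side of the threshold, 7 changed sign and 1 passed the threshold. Among the alternatives that kept all 4 libraries the one change of sign was *MT1X* with library totals only (−0.0045). Without each library in turn (the lone library of a line is then assumed to vary like the other line), *MT2A* ranged from −0.101 to 0.023, *MT1E* from −0.213 to 0.0364, *MT1X* from −0.0696 to 0.129, *MT1F* from −0.0948 to 0.162, *MT1M* from −0.65 to −0.08, *MTF1* from −0.10 to −0.06, *SLC30A1* from −0.38 to −0.14 and the pseudogene *MT1L* from −0.0185 to 0.383. The number of members called ranged from 0 to 1, the 1 being *SLC30A1* without FLO-1LM replicate 1. The count of all genes called was 382, 577 with no low-count filter, and 97 to 1095 without each library: 1095 and 1086 without FLO-1LM replicates 1 and 2, and 97 and 109 without FLO-1 parental replicates 1 and 2. Calls in the zinc, metal and stress lists numbered 2, 4 with no low-count filter, and 0 to 7 without each library. The log2 ratio of the summed metallothioneins of chromosome 16 was −0.0389, −0.0698 with library totals only, and −0.05 to −0.02 without each library. The causes of these changes were not tested. Adding the processed pseudogenes of other chromosomes to the sum, chosen after the counts were seen, gave −0.03. No paired analysis was possible because the labels give no replicate number shared between the lines, and the numbers 1 and 2 used here only name the libraries in accession order.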
